A study of Homo sapiens with 4 samples.

Results

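The enzymes examined here were 8 of the 16057 genes in the table: asparagine synthetase (ASNS), argininosuccinate synthase (ASS1), argininosuccinate lyase (ASL), pyrroline-5-carboxylate reductase 1 (PYCR1), pyrroline-5-carboxylate synthase (ALDH18A1), mitochondrial alanine aminotransferase (GPT2), cytosolic aspartate aminotransferase (GOT1) and mitochondrial phosphoenolpyruvate carboxykinase (PCK2). They were chosen by gene symbol, and all 8 symbols were found once each in the table. Their transcripts were sequenced from MM.1S, an established human line of multiple myeloma cells grown in RPMI-1640 medium with serum and added glutamine, a medium that itself supplies asparagine, arginine and proline. Cells were given 350 nM of JG342, which inhibits HSP70 chaperones allosterically, or the solvent DMSO alone, and both groups were collected after 26 h. Each group had 2 libraries, described as biological duplicates and numbered 1 and 2, so 4 libraries were compared in 1 cell line at 1 dose and 1 time. Values are in TPM, a share of all transcripts that is scaled for transcript length, so that levels of different genes within a library may be set beside each other.

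These enzymes build nonessential amino acids from the carbon of the citric acid cycle and the nitrogen of glutamine and glutamate. GOT1 makes aspartate and GPT2 makes alanine by moving an amino group from glutamate. ASNS turns aspartate and glutamine into asparagine, ASS1 and ASL join aspartate to citrulline and release arginine, and ALDH18A1 and PYCR1 convert glutamate to proline. PCK2 makes phosphoenolpyruvate from oxaloacetate in mitochondria. Cells short of amino acids, or with stress in the endoplasmic reticulum or mitochondria, make more of the transcription factor ATF4, which binds many genes of amino acid synthesis and transport, ASNS being the classical example.

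Promoter sequences are shown for ASNS and GOT1, whose windows carry the core letters of the element that ATF4 binds in ASNS, and for ALDH18A1, whose window does not. The 250 bases before each RefSeq transcription start (build GRCh38.p14) were searched on both strands for TGATGNAA, the core of the composite element bound by ATF4 with C/EBP partners, and for GTTACA, the second element described in the ASNS promoter. RefSeq windows were at hand for 6 of the 8 genes, with 2 starts each for ASNS and ASS1 (8 windows in all); PYCR1 and GPT2 were not searched. Capitals mark the matches, and the strand shown is that of the gene, 5′ to 3′. The ASNS window lies at chr7:97872409-97872658 (minus strand), the GOT1 window at chr10:99430625-99430874 (minus strand) and the ALDH18A1 window at chr10:95656712-95656961 (minus strand).
ASNS: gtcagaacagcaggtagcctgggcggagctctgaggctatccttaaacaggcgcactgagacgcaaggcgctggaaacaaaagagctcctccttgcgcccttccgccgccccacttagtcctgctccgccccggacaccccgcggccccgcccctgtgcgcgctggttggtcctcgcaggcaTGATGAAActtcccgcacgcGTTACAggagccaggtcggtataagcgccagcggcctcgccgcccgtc
GOT1: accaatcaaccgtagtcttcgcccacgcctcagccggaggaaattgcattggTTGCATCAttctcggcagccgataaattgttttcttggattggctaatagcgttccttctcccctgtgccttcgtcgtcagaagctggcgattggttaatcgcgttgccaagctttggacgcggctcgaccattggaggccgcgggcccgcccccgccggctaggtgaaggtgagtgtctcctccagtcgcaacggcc
ALDH18A1: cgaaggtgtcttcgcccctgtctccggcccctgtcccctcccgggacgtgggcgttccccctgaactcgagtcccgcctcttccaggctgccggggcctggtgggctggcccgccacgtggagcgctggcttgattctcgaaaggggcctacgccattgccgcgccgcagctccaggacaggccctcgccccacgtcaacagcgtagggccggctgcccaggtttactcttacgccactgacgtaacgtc

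ASNS carried TGATGAAA from 68 to 61 bases before the upstream one of its starts and GTTACA from 48 to 43 bases before it. GOT1 carried TTGCATCA, which is TGATGCAA on the other strand, from 198 to 191 bases before its start. TGATGNAA was found in 2 of the 8 windows of these enzymes and in 3.14% of the 35116 windows of all genes. GTTACA was found in 2 windows, the other being the upstream ASS1 window (chr9:130444457-130444706, plus strand, 86 to 81 bases before the start), and in 5.59% of all windows. Both together were found in 1 window, that of ASNS, and in 0.379% of all windows. The windows of PCK2, ASL and ALDH18A1 carried neither motif, and neither ASS1 window carried TGATGNAA. The enzymes with a match to either motif, ASNS, ASS1 and GOT1, all passed as higher, as given below. Of the enzymes searched without a match, PCK2 passed as higher, and ASL and ALDH18A1 did not pass. Whether the motifs bear on these levels was not tested. The motifs do not overlap in ASNS. These are matches of letters, which say nothing of binding in these cells.

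JG342 was accompanied by higher transcript levels of 6 of the 8 enzymes. ASNS, ASS1, PYCR1, GPT2, GOT1 and PCK2 passed as higher at a limma adjusted p under 0.05, where 10.8% of the 12042 genes tested passed as higher and 18.4% in either direction. ASL and ALDH18A1, which act beside ASS1 and PYCR1 in the same 2 pathways, did not pass. No enzyme passed as lower (7.62% of all genes did). At an unadjusted limma p under 0.05, 7 enzymes, ASL among them, were higher, as were 18.7% of all genes. At the same level 1, ALDH18A1, was lower, as were 14.9% of all genes. The median log2 fold change of the 8 was 1.38, beside 0.03 for all genes tested. With 2 libraries a group, an exact two-sided permutation test of a single gene cannot go below 0.333, so all p-values come from the fit across all genes.

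**Figure D1:**
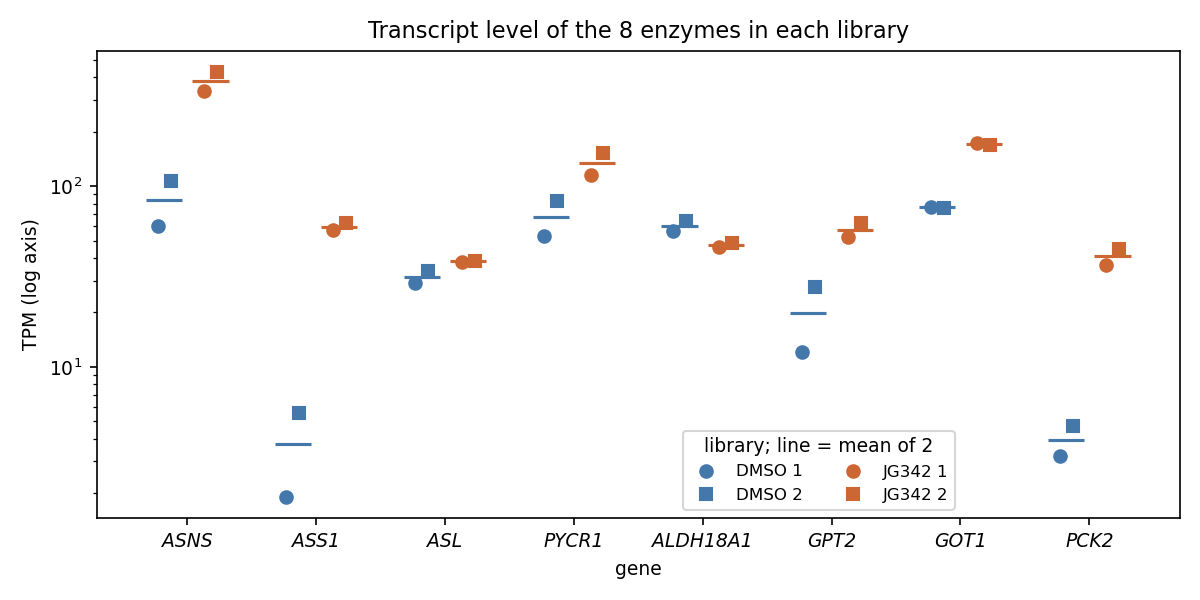
Transcript level of each enzyme in each of the 4 libraries, in TPM on a log axis; blue points are DMSO, orange points JG342, and each short line is the mean of 2 libraries. The JG342 points lie above both DMSO points for 7 genes and below them for ALDH18A1, and the DMSO points of ASS1 and GPT2 lie far apart.

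ASNS was the most abundant of the 8 on average in both groups. It stood at 60.4 and 107 TPM in DMSO replicates 1 and 2 and at 336 and 429 TPM in JG342 replicates 1 and 2. The groups did not overlap, and the lower JG342 library was above the higher DMSO library by more than the DMSO libraries differed from each other. The means were 83.7 ± 33.0 TPM (SD, n = 2) and 383 ± 65.6 TPM, a 4.57-fold difference, and ASNS rose by 2.23 ± 0.23 (SE) on the log2(TPM + 1) scale, the scale of all fold changes below (95% interval 1.71 to 2.74, limma adjusted p 0.000589). Within the library, ASNS moved from percentile 83.7 and 90.5 of all 16057 genes with DMSO to percentile 97.5 and 98.1 with JG342. In GENCODE release 29 every base of the ASNS transcript is shared with an overlapping transcript of the same strand, AC079781.5, so reads of the 2 cannot be told apart.

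GOT1, which supplies the aspartate that ASNS and ASS1 use, had DMSO replicates closer to each other than those of the other 7 enzymes. It was at 76.5 and 76.1 TPM with DMSO and at 174 and 169 TPM with JG342. The groups stood apart, with little spread inside either. Its mean was 2.25 times as high with JG342, a rise of 1.16 ± 0.09 (95% interval 0.95 to 1.37, limma adjusted p 0.000171). An RNA on the opposite strand, AL391684.1, overlaps 22.3% of the GOT1 transcript, and whether the counting used strand is not given in the sources used here.

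The pair of arginine enzymes were far apart in level with DMSO and closer with JG342. ASS1 was at 1.91 and 5.56 TPM with DMSO and at 57.1 and 62.5 TPM with JG342. Its groups were far apart, although DMSO replicate 2 was above replicate 1 by 1.17 on the log2 scale. The mean was 16.0 times as high with JG342, a rise of 3.80 ± 0.31 (95% interval 3.10 to 4.49, limma adjusted p 0.000179). Of the 12042 genes tested, ASS1 was number 3 by the size of its rise. It went from percentile 30.5 and 40.7 of all genes to percentile 82.2 and 84.1.

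ASL, which cleaves the product of ASS1 into arginine and fumarate, was at 29.2 and 33.7 TPM with DMSO and at 38.2 and 38.7 TPM with JG342. The groups did not overlap, but the DMSO libraries differed from each other about as much as the nearest libraries of the 2 groups. The difference was 0.28 ± 0.12 (95% interval 0.02 to 0.55, limma adjusted p 0.127). In a fit that compares same-numbered libraries, with the replicate as a block, ASL passed as higher (limma adjusted p 0.0401). In that fit 19.2% of all genes passed as higher and 34.9% in either direction. ASL did not pass with the block and median scaling together (limma adjusted p 0.0832). ASS1 transcripts were 0.0654 and 0.165 times those of ASL with DMSO, and 1.49 and 1.62 times with JG342. The lowest ratio with JG342 was 9.06 times the highest with DMSO. An overlapping protein-coding transcript, AC068533.4, shares 26.3% of the ASL transcript on the same strand.

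In the proline pathway, the enzyme of the last step was higher and that of the first step was not. PYCR1, which reduces pyrroline-5-carboxylate to proline, was at 52.7 and 82.3 TPM with DMSO and at 115 and 154 TPM with JG342. Replicate 2 was above replicate 1 in both groups, and the groups did not overlap. The mean was 1.99 times as high with JG342, a rise of 1.00 ± 0.20 (95% interval 0.54 to 1.46, limma adjusted p 0.0110), which was no longer past the threshold when genes of low level were also fitted (limma adjusted p 0.0937). An antisense RNA, AC145207.4, overlaps 24.8% of the PYCR1 transcript.

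ALDH18A1, which makes pyrroline-5-carboxylate from glutamate and so feeds both proline and ornithine, was at 56.4 and 64.5 TPM with DMSO and at 46.3 and 48.6 TPM with JG342. Both JG342 libraries were below both DMSO libraries, as held for 28.2% of all genes tested. The opposite order, seen for the other 7 enzymes, held for 34% of all genes, so that 62.1% of genes had groups that did not overlap. The difference was −0.34 ± 0.11 (95% interval −0.59 to −0.09, limma adjusted p 0.0656), and its call depended on the fit. In the fit with the replicate block ALDH18A1 passed (limma adjusted p 0.00540), as did 15.7% of all genes as lower. It also passed after scaling the libraries to equal medians (log2 fold change −0.40, limma adjusted p 0.0404, and 0.00384 with the block as well). With median scaling 1202 of the 12042 genes passed as lower, and 2467 did with the block as well. PYCR1 transcripts were 0.935 and 1.28 times those of ALDH18A1 with DMSO and 2.49 and 3.16 times with JG342.

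GPT2, which makes alanine and 2-oxoglutarate in mitochondria, was at 12.02 and 27.6 TPM with DMSO and at 52.6 and 62.4 TPM with JG342. Its DMSO libraries differed by 1.14 on the log2 scale and its JG342 libraries by 0.24, and the groups did not overlap. The mean was 2.90 times as high with JG342, a rise of 1.59 ± 0.30 (95% interval 0.92 to 2.27, limma adjusted p 0.00834). The size rested on the DMSO library used: it was 1.03 without DMSO replicate 1 (limma adjusted p 0.00888) and 2.16 without DMSO replicate 2 (limma adjusted p 0.000201). When genes of low level were also fitted, GPT2 no longer passed (limma adjusted p 0.0866).

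PCK2, the first step from oxaloacetate towards glucose and serine, was about as low as ASS1 in the DMSO libraries. It was at 3.19 and 4.70 TPM with DMSO and at 36.7 and 45.0 TPM with JG342. Both JG342 libraries were far above both DMSO libraries, and the spread in each group was small beside that distance. The mean was 10.4 times as high, a rise of 3.09 ± 0.18 (95% interval 2.68 to 3.50, limma adjusted p 4.13e-05). It was number 14 of the 12042 genes by the size of its rise, with ASNS at 37, GPT2 at 90, GOT1 at 191 and PYCR1 at 281.

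**Figure D2:**
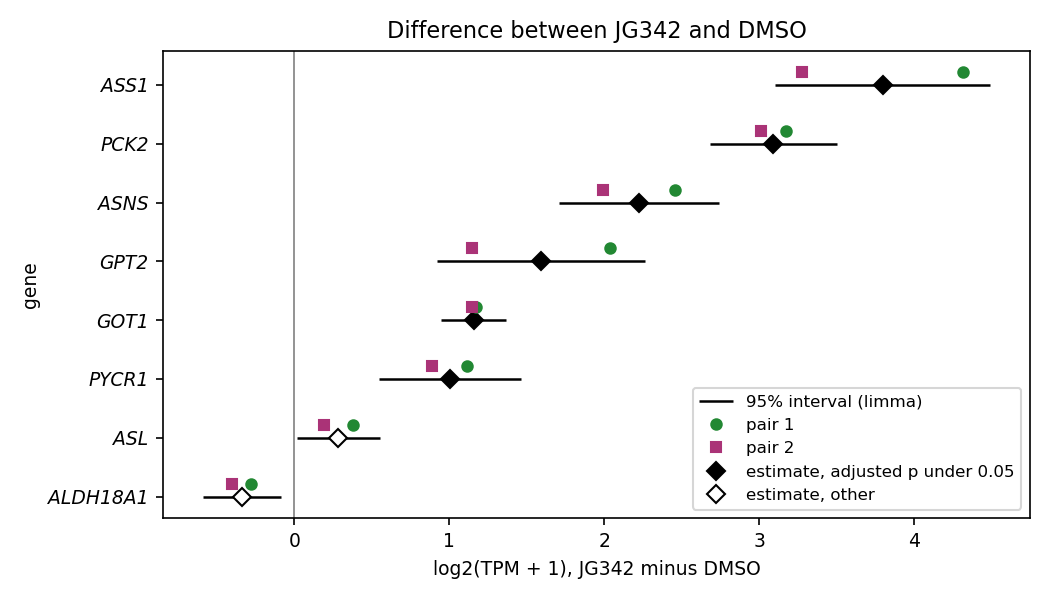
Difference between JG342 and DMSO for each enzyme on the log2(TPM + 1) scale; diamonds are the limma estimates (filled where the adjusted p is under 0.05), lines their 95% intervals, and small points the differences within replicate pairs 1 and 2. The estimates run from −0.34 for ALDH18A1 to 3.80 for ASS1, and within each gene both pairs lie on the same side of 0.

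By size the differences were ordered ASS1, PCK2, ASNS, GPT2, GOT1, PYCR1, ASL and ALDH18A1. The 95% intervals of neighbours in this order overlapped, except for ASL and ALDH18A1, whose intervals lay on either side of 0. Summed over the 8 genes, DMSO libraries held 292 and 401 TPM and JG342 libraries 856 and 1009 TPM. With DMSO the levels ran from ASNS through GOT1, PYCR1, ALDH18A1, ASL, GPT2 and PCK2 to ASS1. The ranges of the 2 libraries overlapped between neighbours from ASNS to ALDH18A1 and between PCK2 and ASS1. With JG342 the order was ASNS, GOT1, PYCR1, ASS1, GPT2, ALDH18A1, PCK2 and ASL, and the ranges overlapped only between ASS1 and GPT2 and between PCK2 and ASL.

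The other forms GOT2, ASNSD1 and PYCR3 were tested, and none of these 3 passed as higher. GOT2, the mitochondrial aspartate aminotransferase, was at 122 and 140 TPM with DMSO and at 111 and 110 TPM with JG342, a difference of −0.24 ± 0.10 (limma adjusted p 0.140, and 0.0273 with the replicate block). GOT1 transcripts were thus 0.628 and 0.543 times those of GOT2 with DMSO and 1.57 and 1.54 times with JG342. ASNSD1, a relative of ASNS, stood at 59.0 and 58.9 TPM against 54.5 and 53.0 TPM (−0.13 ± 0.10, limma adjusted p 0.391). The groups of both genes did not overlap, with JG342 below DMSO, as held for 28.2% of all genes tested.

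PYCR3, a cytosolic form that catalyses the same reaction as PYCR1, was at 12.9 and 15.1 TPM with DMSO and at 9.10 and 11.1 TPM with JG342 (−0.44 ± 0.16, limma adjusted p 0.0843, and 0.0120 with the block). PYCR1 transcripts were 4.09 and 5.44 times those of PYCR3 with DMSO and 12.7 and 13.8 times with JG342. Both remaining forms were low. GPT, the cytosolic alanine aminotransferase, was at 0.23 and 1.26 TPM with DMSO and at 1.09 and 0.97 TPM with JG342. PCK1, the cytosolic form of PCK2, was listed at 0.11 TPM in DMSO replicate 1 and at 0 in the other 3 libraries. Neither was fitted, since genes averaging under 1 TPM were left out of the test.

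**Figure D3:**
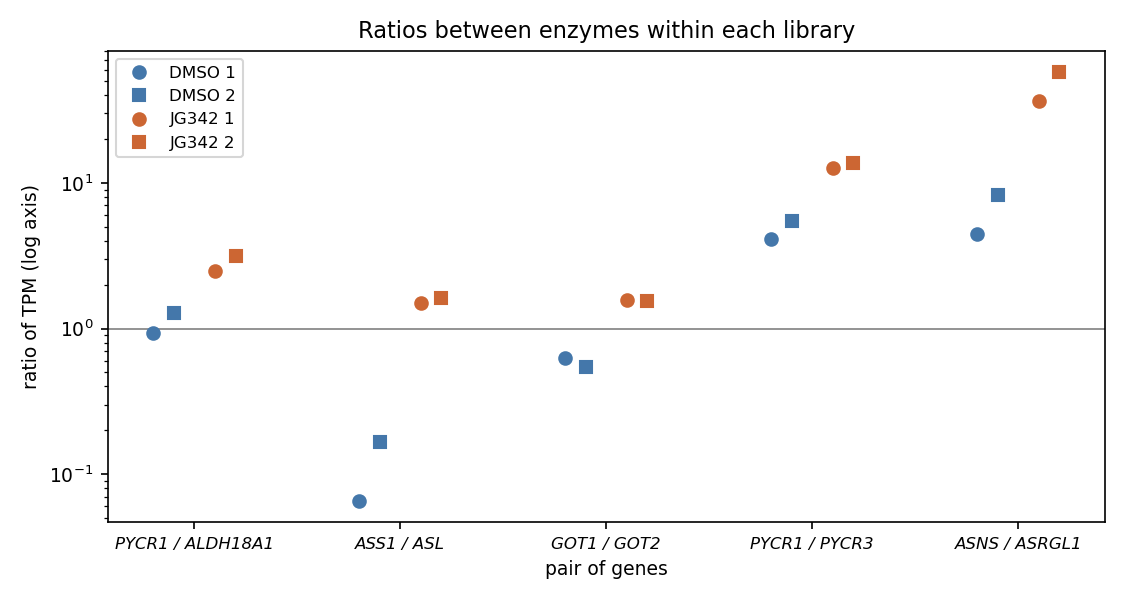
Ratio of the TPM of 2 enzymes within each library, on a log axis, for PYCR1 over ALDH18A1, ASS1 over ASL, GOT1 over GOT2, PYCR1 over PYCR3 and ASNS over ASRGL1; blue is DMSO and orange JG342. Every ratio shown is higher in both JG342 libraries than in both DMSO libraries, and those of ASS1 over ASL and GOT1 over GOT2 cross from below 1 to above 1. Each sets an enzyme that passed as higher over a gene that did not, so this follows largely from the single-gene results. The ratio of GPT2 over GPT, not shown, overlapped between groups (52.3 and 21.9 with DMSO, 48.2 and 64.3 with JG342), GPT being low in every library.

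Few other genes of these pathways passed. Of 43 further genes of asparagine, aspartate, arginine, ornithine, proline, glutamate, alanine, phosphoenolpyruvate and pyruvate metabolism, 39 were found and 29 were tested. Of these 29, 1 passed as higher and 2 as lower, beside 10.8% and 7.62% of all genes. Their median log2 fold change was −0.01. With the replicate block 3 passed as higher and 7 as lower, where 19.2% and 15.7% of all genes did.

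Among genes of asparagine and aspartate, ASRGL1, which breaks asparagine down, was the 1 of 7 that passed. It fell from 13.5 and 12.9 TPM with DMSO to 9.23 and 7.44 TPM with JG342, a difference of −0.61 ± 0.15 (limma adjusted p 0.0251). ASNS transcripts were 4.48 and 8.28 times those of ASRGL1 with DMSO and 36.4 and 57.7 times with JG342. The fall was not past the threshold without DMSO replicate 1, DMSO replicate 2 or JG342 replicate 2 (limma adjusted p 0.126, 0.111 and 0.0906).

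None of the 7 tested genes of arginine and ornithine passed the limma threshold, and none had an unadjusted p under 0.05, a level at which 18.7% of all genes were higher and 14.9% lower. They include CPS1, ARG2, which hydrolyses arginine in mitochondria, and SLC25A15, the mitochondrial ornithine carrier. Of the 4 tested further genes of proline, none passed the limma threshold, with 1 higher and 3 lower at an unadjusted p under 0.05 (18.7% and 14.9% of all genes). The 3 lower genes are PYCR3, OAT and ALDH4A1. Of the 5 tested genes of glutamate and alanine none passed, with 1 higher and 2 lower at an unadjusted p under 0.05 (18.7% and 14.9% of all genes).

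Among genes around phosphoenolpyruvate and pyruvate, the 2 subunits of the mitochondrial pyruvate carrier went opposite ways. MPC1 rose from 121 and 121 TPM to 164 and 212 TPM, by 0.62 ± 0.12 (limma adjusted p 0.0108). MPC2 fell from 105 and 111 TPM to 83.0 and 85.4 TPM, a difference of −0.36 ± 0.10 (limma adjusted p 0.0330). Neither call held when a DMSO library was left out (limma adjusted p 0.0546 and 0.0646 for MPC1 without DMSO replicates 1 and 2, and 0.1004 and 0.193 for MPC2), and that of MPC2 was also lost without JG342 replicate 1 or 2 (0.105 and 0.0695) and without the mean-variance trend (0.0876). When genes of low level were also fitted, ASRGL1, MPC1 and MPC2 did not pass (limma adjusted p 0.0910, 0.0713 and 0.0619). ARG2, SLC25A15, CPS1, OAT and ALDH4A1 are named here after their values were seen.

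**Figure D4:**
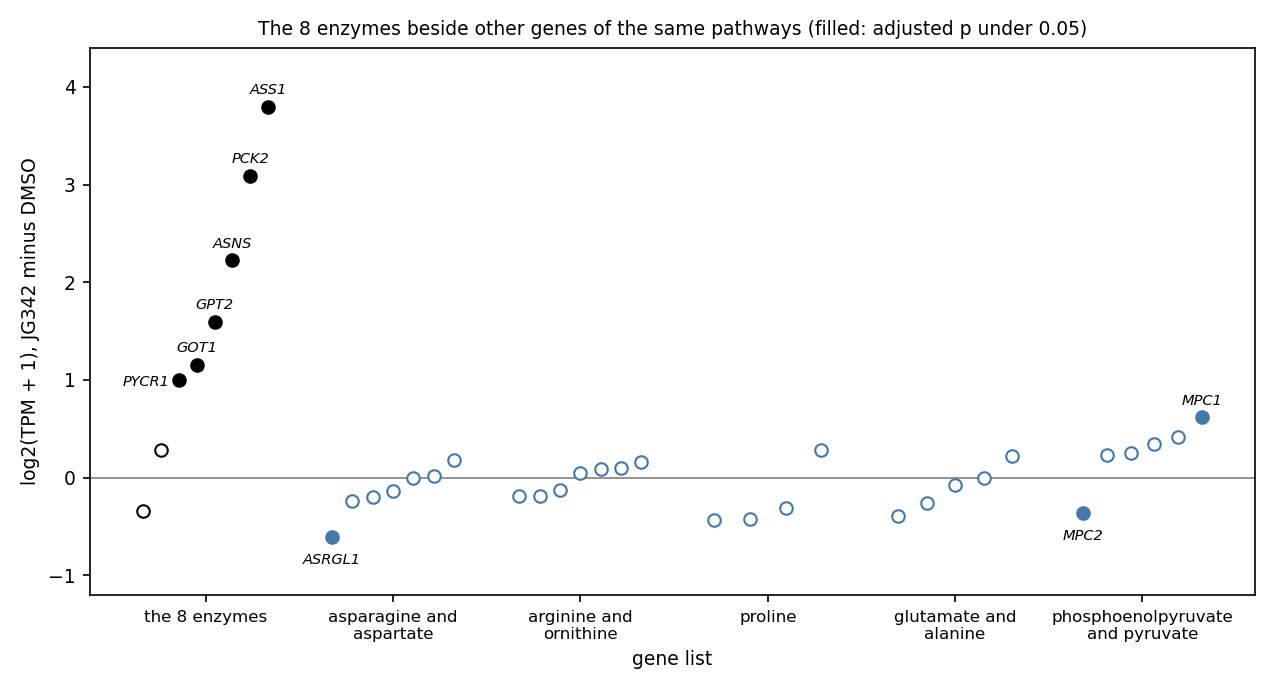
Difference between JG342 and DMSO (log2(TPM + 1) scale) for the 8 enzymes and for the tested genes of 5 lists of the same pathways, ordered by size within each list; filled points passed at a limma adjusted p under 0.05. The filled points among the 8 enzymes lie between 1.00 and 3.80, and those of the other lists are ASRGL1, MPC1 and MPC2, between −0.61 and 0.62.

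DMSO replicate 2 was above DMSO replicate 1 for 7 of the 8 enzymes, by a median of 0.54 on the log2 scale, where the median over all tested genes was 0.04. GOT1 was the exception, at −0.01. The same library was higher for all 6 genes taken as a reference for the stress response (ATF4, ATF3, DDIT3, TRIB3, CHAC1 and SESN2), by a median of 0.79. ATF4, the transcription factor itself, was at 420 and 788 TPM with DMSO and at 1269 and 1476 TPM with JG342. CHAC1, which degrades glutathione, was at 3.53 and 28.3 TPM against 97.1 and 138 TPM. All 6 reference genes rose with JG342, from 1.25 for ATF4 to 3.34 for CHAC1, with the remaining 4 at 2.22 (ATF3), 2.72 (SESN2), 3.25 (DDIT3) and 3.34 (TRIB3), and a largest limma adjusted p of 0.0102. ATF4 and CHAC1 did not pass when genes of low level were also fitted (limma adjusted p 0.0917 and 0.103). The members of this reference list and the 8 enzymes are among the genes commonly named as part of one response. Their changes therefore cannot be taken as independent of each other. The part of the stress response in the enzymes' levels was not tested. Without DMSO replicate 1 the difference was 0.80 for ATF4 and 1.99 for CHAC1, which was then not the largest, and without DMSO replicate 2 it was 1.70 and 4.69. The 6 calls of the enzymes were all kept without DMSO replicate 2 and all kept without DMSO replicate 1. Without DMSO replicate 1 the rises were smaller, at 1.82 for ASNS, 3.21 for ASS1, 0.69 for PYCR1 and 2.87 for PCK2, and without DMSO replicate 2 they were 2.63, 4.38, 1.32 and 3.31.

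**Figure D5:**
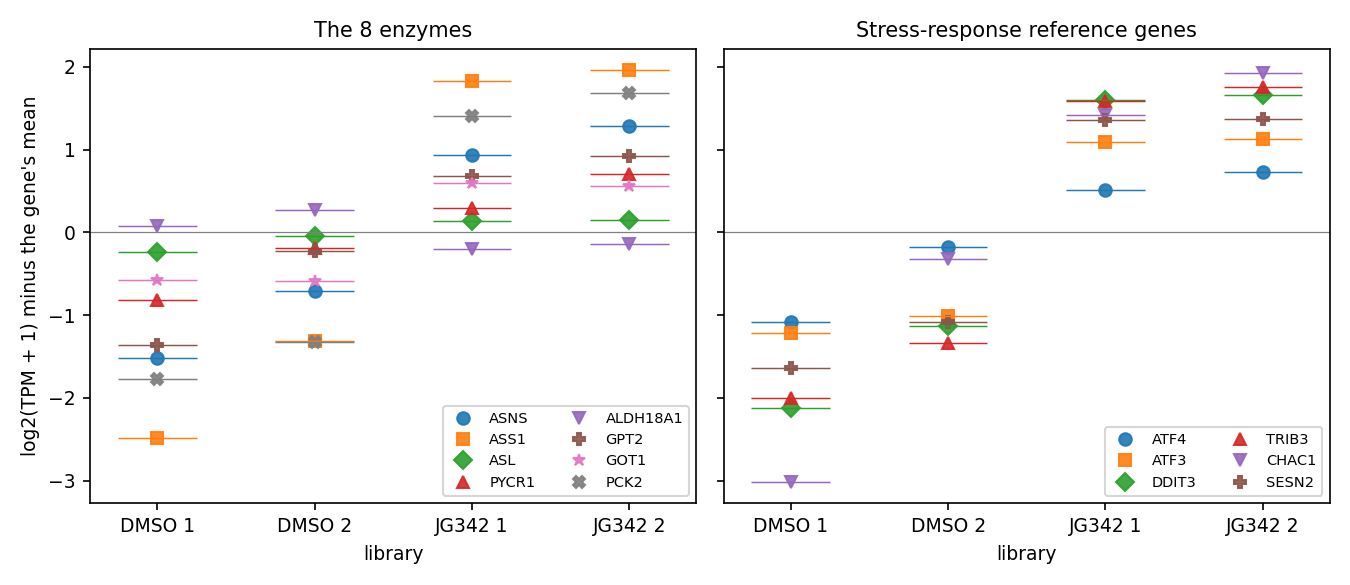
Level in each library, as log2(TPM + 1) minus the gene's mean over the 4 libraries, for the 8 enzymes (left) and 6 stress-response reference genes (right); each symbol is 1 gene. All 6 reference genes and 7 of the 8 enzymes are higher in DMSO replicate 2 than in replicate 1, GOT1 being level, and ALDH18A1 alone is below its mean in both JG342 libraries.

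Profiles over the 4 libraries were compared by the Euclidean distance between log2(TPM + 1) values centred on each gene's mean, among 9806 other genes that averaged 5 TPM or more. The nearest gene to ASNS was TUBE1 (distance 0.12), to ASS1 SLC6A9 (0.44), to PYCR1 GALM (0.05), to GPT2 SLC7A11 (0.14), to GOT1 UBE2QL1 (0.06) and to PCK2 ERICH2 (0.15). ASL lay nearest to PHKA1 (0.01) and ALDH18A1 nearest to FANCG (0.02). The mean profile of the 8 enzymes was nearest to PMAIP1 (0.10), AARS (0.12) and SARS (0.15). Among the 8 themselves the closest were PYCR1 and GOT1 (0.57), and the farthest ASS1 and ALDH18A1 (4.19). These distances rest on the same 4 libraries in 2 groups.

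Library totals were between 994463 and 994718 TPM. All 10 listed markers of plasma cells and myeloma were detected, with a lowest value of 22.04 TPM. They summed to 15159 and 14890 TPM with DMSO and 10937 and 10232 TPM with JG342, and 2 passed as higher (IRF4 and PRDM1) and 3 as lower (TNFRSF17, MAF and JCHAIN). JCHAIN alone went from 9907 and 10383 TPM to 5732 and 5431 TPM. Markers of other cell types summed to between 55.9 and 66.6 TPM per library for the 8 of 10 found, of which CD14, COL1A1, EPCAM and ALB stayed at or under 1 TPM. LYZ held most of that sum, at 37.0 to 46.2 TPM. HBB was at 8.19 and 7.34 TPM with DMSO and at 10.95 and 11.4 TPM with JG342, and CD3E at 5.49 and 7.70 against 5.26 and 3.21 TPM. None of the 4 tested passed the limma threshold without a block, while HBB and CD3E did with it (limma adjusted p 0.00972 and 0.00753). In these bulk samples, fewer cells of a kind and less RNA per cell cannot be told apart, and the part of the marker shift in the enzymes' values was not tested.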

How the data were processed

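RNA from MM.1S cells was sequenced by a service provider on a BGISEQ-500 instrument, per the labels' protocols. The authors deposited 1 value per gene and library, with a RefSeq accession and a symbol. The header names no unit; the values were taken as TPM, deposited with 2 decimals, because each library sums to between 994463 and 994718. The submitters' processing notes name HISAT2 2.0.4, Bowtie2 2.2.5 and RSEM 1.2.12, with no role; the genome build, annotation, strand setting and filters are not given in the sources used here. TPM keeps no depth, so depth is unknown and no counting intervals are given.

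Values were transformed to log2(TPM + 1), a scale that understates changes of low genes. The 12042 genes averaging 1 TPM or more were fitted (4015 left out) with limma 3.58.1 in R 4.3.3 (lmFit, eBayes with a mean-variance trend, treatment as the only term), two-sided, with Benjamini-Hochberg adjustment over all fitted genes and a threshold of 0.05. The fit had 2 residual and 6.89 prior degrees of freedom and was tested on simulated data. In another fit the replicate number was a block, since libraries of one number carry the same prefix in their sample descriptions. Their deviations from the group means correlated at a Pearson r of 0.27 over genes. That fit had an infinite prior.

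The enzymes, lists and rules were chosen with earlier results of these data known. Named genes were the 8 enzymes, pathway genes past the threshold, the enzymes' relatives, 6 stress-response genes and the genes of nearest profile. Near-identical and overlapping transcripts were sought in GENCODE release 29 for all 8 accessions (BLAST 2.17.0, at least 95% identity over at least 20% of the transcript). Among the 43 pathway genes, 4 were not found and 10 were under the filter on low values. Values of some single genes are not reported here.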

Additional observations from a re-analysis of the deposited data

How the results depend on the processing

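The direction of all 8 enzymes held under all 13 alternatives, and those of ASNS, ASS1, GOT1 and PCK2 also kept their side of the threshold in each, with limma adjusted p of at most 0.0394. Over the 20 named genes with a fit, 235 of 260 values kept direction and side of the threshold, 17 were no longer past it, 8 were newly past it and 0 reversed. The number of enzymes passing as higher was 6, with 7 under the replicate block, 6 under the block with median scaling and 4 without a filter on low values. The number passing as lower was 0, and 1 (ALDH18A1) with the replicate block, with median scaling and with both together.

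Over all genes 2221 passed, and 4207 did with the replicate block, 4226 with the block and median scaling, 828 without the filter on low values, and between 767 (without DMSO replicate 2) and 1825 when each library was left out, with 1046 without DMSO replicate 1. Higher genes were 58.7% of the calls, and 44.6% after median scaling (967 higher, 1202 lower) and 41.6% with the block in addition. Of the other pathway genes, 1 passed as higher and 2 as lower. These counts were 3 and 7 with the replicate block, 2 and 9 with the block and median scaling, 2 and 4 after quantile normalization, 0 and 0 without the filter, 2 and 2 with a filter at 5 TPM, and 1 and 1 without the mean-variance trend. With each library left out they ran from 0 to 2 and from 0 to 1. Except where a setting itself removes genes or libraries, the cause was not tested.

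Having 2 libraries a group limits all of this: the errors depend mostly on a variance pooled over genes, a lone library in a group is assumed to vary like the others, and the values of ASS1 and PCK2 with DMSO are low.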
